A study of Mus musculus with 10 samples.

Results

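Olfactory receptor genes are the largest gene family of the mouse and lie in tandem arrays on most chromosomes. H3K4me3 was described here in the 5 kb windows on chromosomes 1 to 19 to which the deposited annotation gives a gene named Olfr followed by a number. There were 1447 such windows of 544879, naming 1076 genes, and they are called Olfr windows. They lay on 17 chromosomes (all but 12 and 18) in 48 runs, where a run ends at a gap of more than 1 Mb, and 19 runs held at least 20 windows. The libraries came from germinal vesicle (GV) oocytes, fully grown oocytes arrested before meiosis resumes, of C57BL6 females aged 21 days. *Setd1b* cKO oocytes were *Setd1b* floxed/floxed with *Gdf9*-Cre, which is active in oocytes from early follicle development on, and WT oocytes were *Setd1b* floxed/floxed without Cre, as the libraries are labelled. The study's methods also count Cre-positive females with 1 intact *Setd1b* allele as WT. H3K4me3 was profiled by ultra-low-input native ChIP-seq in pools of about 200 oocytes, in 3 cKO libraries (replicates 1, 3 and 4) and 3 WT libraries (replicates 1, 2 and 4), with 2 input libraries of unprecipitated chromatin per genotype. The study left out 1 more H3K4me3 library of each genotype as poorly enriched and an outlier in clustering. The excision of *Setd1b* was not analysed here.

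An olfactory sensory neuron expresses 1 allele of 1 receptor gene, and most receptor genes are silent in other cell types. The protein is encoded by a single exon, and most genes begin with short noncoding exons a few kilobases upstream. Odorant binding raises cAMP through a G protein and an adenylyl cyclase and opens a cyclic nucleotide-gated channel. H3K4me3 marks promoters in most cells, and in oocytes it also forms broad domains that follow CpG density. SETD1B is one of the methyltransferases that deposit it. Olfactory receptor promoters are known for their low CpG content.

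Sequences are shown from the 5 windows that differed between the genotypes, for their CpG content, and from a window with high H3K4me3. The stretches come from RefSeq on GRCm38.p6, read 5′ to 3′ with each CpG in capitals. For *Olfr1328*, *Olfr729*, *Olfr739* and *Olfr750* each is the part of the RefSeq promoter entry that lies outside the exons of GENCODE M21, coding and untranslated. The stretch of *Olfr1328* runs past the end of the called window. For *Olfr2* and *Olfr287* it is the stretch of the called window with the most CpGs, which holds coding sequence in *Olfr2* and lies beyond the 3′ end of *Olfr287*, in an intron of *Gm44579*.
Olfr1328, chr4:118934855-118935090, minus strand, window gained: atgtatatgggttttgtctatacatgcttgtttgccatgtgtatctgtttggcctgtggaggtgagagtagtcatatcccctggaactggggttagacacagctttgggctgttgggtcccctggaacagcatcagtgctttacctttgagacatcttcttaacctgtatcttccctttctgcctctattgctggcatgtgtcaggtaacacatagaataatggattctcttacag
Olfr729, chr14:50148905-50149122, minus strand, window lost: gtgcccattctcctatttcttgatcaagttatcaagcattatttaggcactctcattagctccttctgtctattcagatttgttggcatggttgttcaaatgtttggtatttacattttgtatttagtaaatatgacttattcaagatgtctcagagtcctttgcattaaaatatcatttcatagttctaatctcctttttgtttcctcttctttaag
Olfr739, chr14:50424271-50424509, plus strand, window lost: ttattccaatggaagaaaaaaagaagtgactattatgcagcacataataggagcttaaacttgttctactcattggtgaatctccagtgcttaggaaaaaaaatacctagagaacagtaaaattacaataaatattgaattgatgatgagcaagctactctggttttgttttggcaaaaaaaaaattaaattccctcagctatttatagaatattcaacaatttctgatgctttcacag
Olfr2, chr7:107000878-107001165, plus strand, window gained: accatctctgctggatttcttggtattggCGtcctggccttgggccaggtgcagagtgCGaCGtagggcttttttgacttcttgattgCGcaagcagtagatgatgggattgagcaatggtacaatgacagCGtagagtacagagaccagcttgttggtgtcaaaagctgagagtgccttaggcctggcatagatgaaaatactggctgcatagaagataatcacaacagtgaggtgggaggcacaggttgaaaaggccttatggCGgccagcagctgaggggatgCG
Olfr287, chr15:98206464-98206763, plus strand, window lost: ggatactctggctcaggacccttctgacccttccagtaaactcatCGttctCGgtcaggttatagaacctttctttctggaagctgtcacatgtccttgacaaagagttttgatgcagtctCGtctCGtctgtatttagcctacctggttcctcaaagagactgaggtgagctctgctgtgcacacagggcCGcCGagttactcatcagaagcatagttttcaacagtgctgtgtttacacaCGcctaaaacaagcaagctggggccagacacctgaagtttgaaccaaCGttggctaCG
Olfr750, chr14:51071567-51071692, minus strand, window high in both genotypes: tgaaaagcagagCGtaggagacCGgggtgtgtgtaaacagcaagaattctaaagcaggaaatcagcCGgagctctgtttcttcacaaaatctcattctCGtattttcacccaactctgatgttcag
The stretches of *Olfr1328*, *Olfr729* and *Olfr739* hold no CpG, that of *Olfr750* holds 4, and those of *Olfr2* and *Olfr287* hold 7 and 9. In the GENCODE M21 annotation the first 3 stretches are the ends of introns just before the coding exon.

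RefSeq promoter entries (250 bases before to 50 bases after the annotated start) were matched to 938 receptor genes, 892 of them among the 1076 named by the windows. Of the 942 entries, 835 have their start within 100 bases of the start codon in GENCODE M21, and 781 have another transcript start of the gene further upstream. They therefore describe mostly the sequence just before the coding exon. The 942 entries had a median of 1 CpG, against 7 over all 32851 entries of that length, and the median was also 1 in the 98 entries of genes in GENCODE M21 that are not near a start codon. No CpG was present in 33.5% of receptor entries and 5.43% of all entries, and at least 10 CpGs in 2 receptor entries and 43.5% of all. Of 2 motifs searched on both strands, TAATTA was found in 18.7% of receptor entries and 5.29% of all, and the palindromic EBF motif in 5 receptor entries (0.531%) and 0.904% of all. TAATTA is AT-rich, and the base composition of the entries was not matched. Whole Olfr windows held a median of 21 CpGs, against 34 in all windows.

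H3K4me3 in Olfr windows was low but above the level of windows without reads. The values are enrichment-normalized RPKM, in which each library is shifted and scaled so that its 40th and 99th percentiles equal those of the others (1.23 and 6.77). The value of a window without reads therefore differed between libraries, from -1.02 in cKO replicate 3 and -0.70 in cKO replicate 4 to 0.785 in cKO replicate 1 and 0.81 in WT replicate 1. Libraries held 10856015 to 32775874 reads in windows for H3K4me3 and 20756128 to 26566505 for input. At the middle of the ranked Olfr windows the count was 7 in the library with the fewest reads there and 36 in that with the most, so single windows were precise to no better than counting error allows. Of the 1447 windows, 1439 held at least 10 reads over the 6 libraries and 873 had a mean of at least 1.

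The mean over Olfr windows was 1.66, 1.49 and 1.70 in WT replicates 1, 2 and 4, and 1.56, 1.24 and 1.27 in cKO replicates 1, 3 and 4. The cKO replicates 3 and 4 lay below every WT library and cKO replicate 1 lay among them. The group means were 1.62 ± 0.113 in WT and 1.36 ± 0.174 in cKO (SD, n = 3), against 2.02 ± 0.107 and 1.94 ± 0.124 over all windows. The median Olfr window stood between the 31.5 and 41.0 percentile of all windows in the 6 libraries. A WT level of at least 3 was reached by 168 Olfr windows, or 11.6%, against 22.0% of all windows, and the cKO level reached 3 in 111, or 7.67%, against 21.7%.

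In mean reads, input did not show this deficit. In whole reads, which were recovered from the values, Olfr windows held 0.678 to 0.785 times the mean of all windows in the WT H3K4me3 libraries and 0.594 to 0.783 times in the cKO libraries. In the 4 input libraries the same ratio was 0.997 to 1.10. The median input value was 1.92 and 2.08 in WT and 1.85 and 1.99 in cKO, in reads per window scaled to library size, and stood at the 41.4 and 55.4 percentile of all windows in WT and the 35.4 and 48.0 percentile in cKO. The median of the cKO replicate 1 input thus lay within the range of the H3K4me3 libraries and that of the WT replicate 1 input just above it. All windows on chromosomes 1 to 19 held 1.04 to 1.05 times the mean reads in input.

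**Figure D1:**
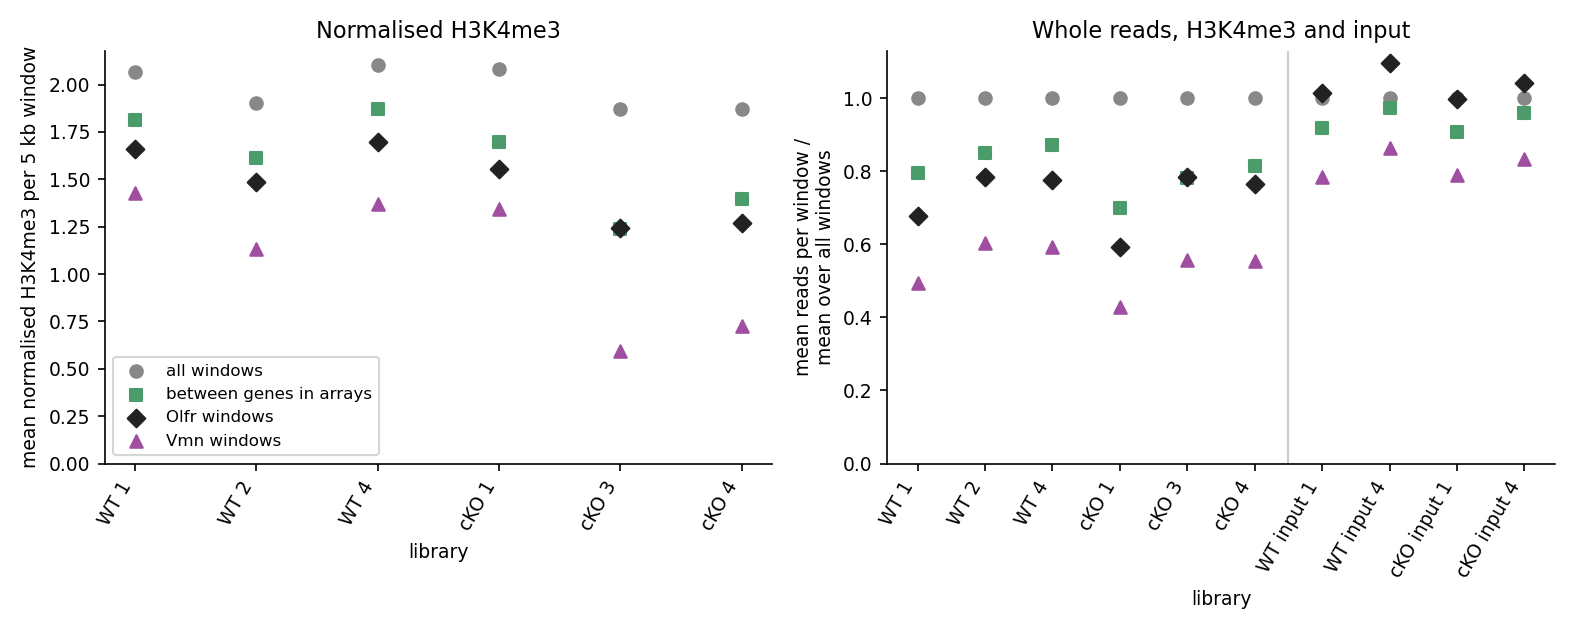
Mean normalised H3K4me3 per 5 kb window (left) and mean reads per window relative to all windows (right), for each library, in Olfr windows, windows between the genes of the arrays, vomeronasal receptor (Vmn) windows and all windows. Olfr windows lie below all windows in the 6 H3K4me3 libraries and near 1 (0.997 to 1.10) in the 4 input libraries.

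In single windows the comparison of cKO with WT gave few calls. At an adjusted p under 0.05 (limma over all windows, two-sided), 2 Olfr windows (0.138%) gained H3K4me3 and 3 (0.207%) lost it. Over all windows 0.563% were called as gains and 0.454% as losses. The study reported gains or losses over a larger share of the genome with its LIMMA test. At an unadjusted p under 0.05, 21 Olfr windows were higher in cKO (1.45%, background 6.82%) and 166 were lower (11.5%, background 8.12%). The libraries did not overlap, with cKO lower, in 212 windows (14.7%, background 9.95%) and, with cKO higher, in 61 (4.22%, background 9.88%). The cKO mean was the lower one in 999 windows, or 69.0%, against 56.3% of all windows. These shares have no test of their own, since neighbouring windows are not independent.

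The overall direction depended on the scale. On the normalised scale the mean difference, cKO minus WT, was -0.26 (SE 0.12) over Olfr windows and -0.08 over all windows. On log2(RPM + 0.5), where RPM is whole reads scaled to the library's total, it was 0.04 over Olfr windows and 0.07 over all windows, and the median differences were 0.07 and 0.04. On that scale the cKO mean was the lower one in 44.2% of Olfr windows and 39.9% of all windows, and the libraries did not overlap, with cKO lower, in 157 Olfr windows (10.9%, background 7.89%) and, with cKO higher, in 60 (4.15%, background 7.08%). Without cKO replicate 1 the mean difference on the normalised scale was -0.36, and 3 Olfr windows (0.207%, background 1.71%) were called as gains and 25 (1.73%, background 1.59%) as losses.

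Other models gave other counts. With an intensity trend, limma called 7 gains (0.484%, background 1.57%) and 43 losses (2.97%, background 2.01%) among Olfr windows. edgeR on whole reads called 5 gains (0.347%, background 1.07%) and 27 losses (1.88%, background 1.22%). With the replicate number as a block, limma called 6 gains (0.415%, background 2.51%) and 56 losses (3.87%, background 3.63%). The share of losses was above the background in each of these fits, and below it in the first limma fit (0.207%, background 0.454%).

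**Figure D2:**
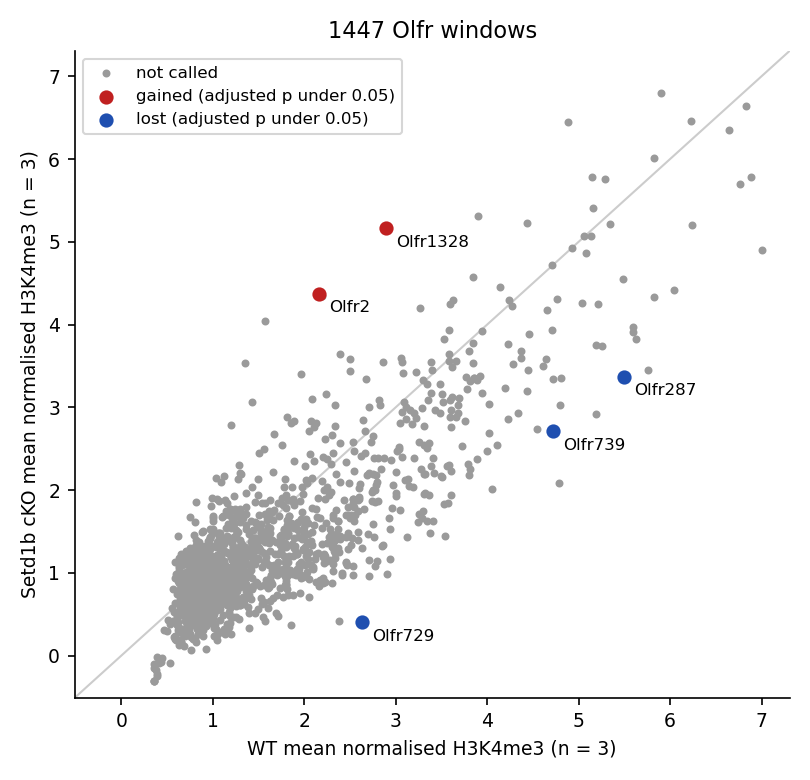
Mean normalised H3K4me3 in WT (x axis) and *Setd1b* cKO (y axis), n = 3 libraries each, for 1447 Olfr windows. The line marks equality, and the coloured points are the 2 windows called as gains and the 3 called as losses.

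None of the called windows holds the GENCODE start of the gene it is named for. The window of *Olfr1328* (chr4:118930001-118935000, the 3′ part of the gene with the coding exon) read 3.16, 2.49 and 3.03 in WT replicates 1, 2 and 4 and 5.11, 4.93 and 5.47 in cKO replicates 1, 3 and 4. All cKO libraries were above all WT libraries, with a difference of 2.27 (SE 0.36, adjusted p = 0.0275). The window of *Olfr2*, the octanal receptor I7 (chr7:107000001-107005000, coding exon), read 2.22, 2.10 and 2.16 in WT and 4.06, 4.27 and 4.80 in cKO, in the same order of replicates. The difference was 2.21 (SE 0.35, adjusted p = 0.0275). The adjacent window, which holds the start of *Olfr2*, moved the other way, from 5.10, 7.07 and 5.19 in WT to 4.45, 2.02 and 4.99 in cKO. Its difference of -1.97 (SE 0.77) did not pass the adjusted test (adjusted p = 0.26).

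The 3 losses lay on chromosomes 14 and 15. The window of *Olfr729* (chr14:50145001-50150000) fell from 2.96, 2.01 and 2.94 in WT to 0.952, 0.041 and 0.216 in cKO, where it held 3, 8 and 19 reads, against 41, 21 and 88 in WT. The difference was -2.23 (SE 0.41, adjusted p = 0.0405). It was the lowest of the called windows in cKO and was the only one of the 5 that edgeR on the whole reads also called. The window of *Olfr739* (chr14:50420001-50425000), in the same array, read 5.05, 4.34 and 4.77 in WT and 3.28, 2.29 and 2.58 in cKO, a difference of -2.00 (SE 0.39, adjusted p = 0.0462). The window of *Olfr287* (chr15:98205001-98210000, 11.1 kb from its start and around its 3′ end) read 5.36, 5.32 and 5.82 in WT and 3.23, 3.34 and 3.54 in cKO, a difference of -2.13 (SE 0.34, adjusted p = 0.0281). Another window of the same gene, 10 kb away, was among the highest of all Olfr windows and stood at 6.23 ± 0.20 in WT and 6.46 ± 0.69 in cKO.

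The calls depended on single libraries, here and over all windows. With 1 library left out, the adjusted p of these 5 windows rose to between 0.114 and 0.177 at its highest. Each window stayed called in 1 or 2 of the 6 omissions, that of cKO replicate 1 among them. Over all windows, leaving out WT replicate 2, WT replicate 4 or cKO replicate 4 gave 0 calls, and leaving out WT replicate 1 gave 1. In these omissions almost no window could stay called, so they do not single out these 5. An exact permutation test over 3 against 3 libraries cannot give a two-sided p below 0.1.

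**Figure D3:**
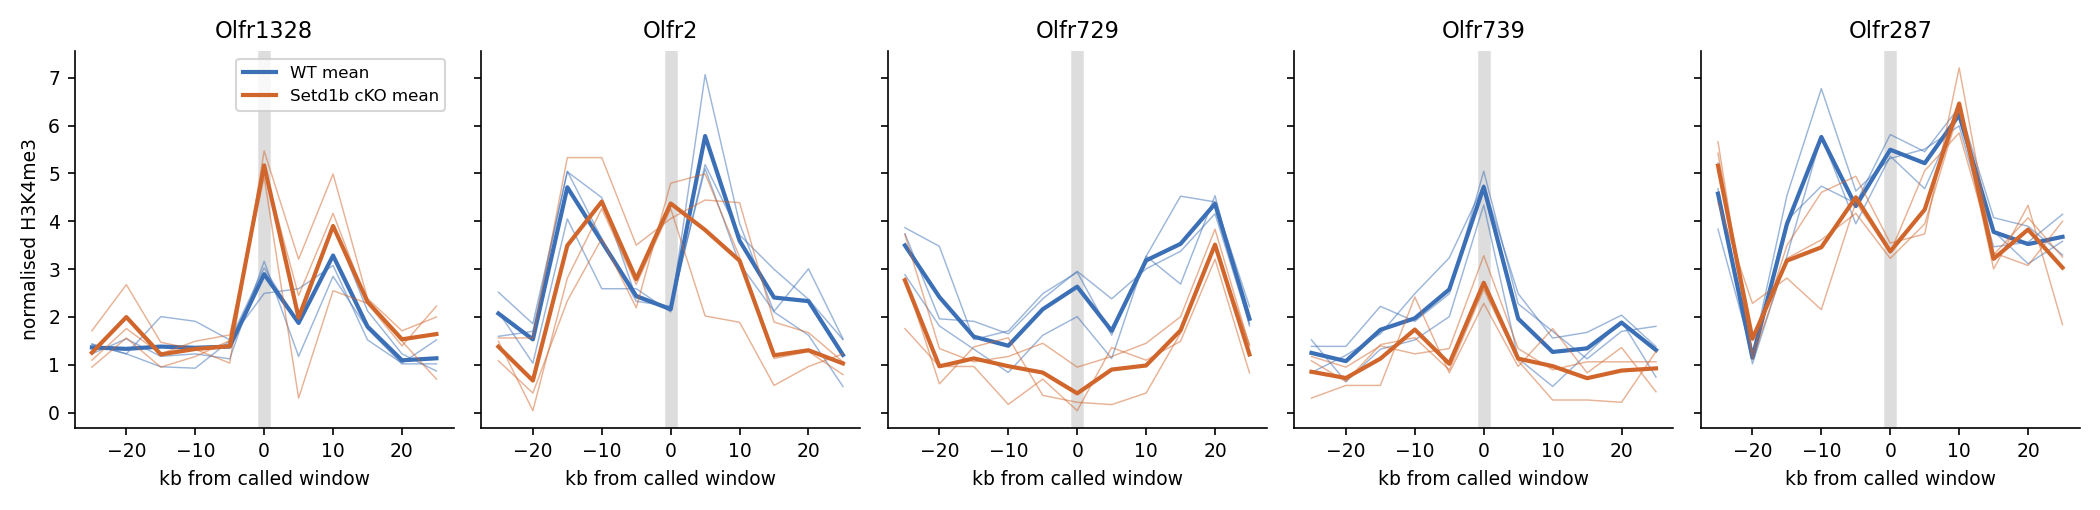
Normalised H3K4me3 in the 5 called windows (grey band, 0 kb) and the neighbouring windows within 25 kb, with thin lines for libraries and thick lines for the means of WT and *Setd1b* cKO. At *Olfr2* the cKO is higher at 0 kb and lower at 5 kb, and at *Olfr729* the cKO means of the windows around the called one are also lower.

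The highest Olfr windows did not pass the test. The window of *Olfr544* on chromosome 7 stood at 6.83 ± 0.13 in WT and 6.64 ± 0.78 in cKO, and that of *Olfr750* at 6.64 ± 0.32 and 6.35 ± 0.56. The window of *Olfr225* on chromosome 11 stood at 5.90 ± 0.12 and 6.80 ± 0.71, and that of *Olfr608* at 6.89 ± 0.81 and 5.79 ± 1.78. Their adjusted p ranged from 0.344 to 0.839, with that of the high *Olfr287* window (0.788) in this range. The promoter entry of *Olfr750*, printed above in part, holds 11 CpGs, where receptor entries reach 13 at most.

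Well studied receptors showed the range of levels at their starts. The window with the start of *Olfr73*, the eugenol receptor, stood at 0.71 ± 0.48 in WT and 0.57 ± 0.45 in cKO, and that of *Olfr16*, the lyral receptor, at 0.86 ± 0.23 and 0.71 ± 0.24. That of *Olfr17* stood at 1.39 ± 0.39 and 1.08 ± 0.17, and that of *Olfr78*, which also serves outside the nose in the carotid body, at 1.78 ± 0.40 and 1.20 ± 0.42. The acetophenone receptors *Olfr151* and *Olfr160* were higher, at 3.44 ± 0.53 and 2.26 ± 0.43 in WT and 2.76 ± 1.18 and 1.63 ± 0.64 in cKO. On chromosome 14, *Olfr1507* stood at 1.82 ± 0.24 and 0.98 ± 0.52, *Olfr1508* at 0.78 ± 0.37 and 1.26 ± 0.67, and *Olfr1509* at 1.46 ± 0.17 and 1.28 ± 0.44. Besides *Olfr2*, the libraries of the genotypes did not overlap for *Olfr1507* alone of these 10 receptors, with a difference of -0.85 (SE 0.38, adjusted p = 0.331). Both were lower in cKO, and 9.95% of all windows were lower in cKO without overlap. With *Olfr2*, 6 of these 10 start windows carry no gene name in the deposited table and are therefore no Olfr windows.

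Most arrays were lower in cKO on the normalised scale. Of the 19 arrays of at least 20 windows, which held 1290 Olfr windows, 16 had a lower mean in cKO. All windows together differed by -0.08 on this scale. Of the 16, the array on chromosome 6 (-0.014) and those on chromosome 11 that start with *Olfr56* (-0.074) and *Olfr30* (-0.005) were lower by less than that. The genotypes did not overlap in 6 of the 19 arrays, with cKO lower in 5 and higher in 1. By chromosome, 15 of 17 had a lower mean in cKO, 7 of them without overlap, and none was higher without overlap. The same counts were not made for runs of other windows. On log2(RPM + 0.5), 5 of the 19 arrays were lower in cKO, or 10 of 19 after subtracting the shift of all windows. The array on chromosome 17 was lower without overlap on both scales.

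That array (chr17:37085001-38340000, *Olfr90* to *Olfr136*, 65 windows) borders the major histocompatibility complex. Its mean was 2.199, 1.98 and 2.45 in WT replicates 1, 2 and 4 and 1.92, 1.44 and 1.45 in cKO replicates 1, 3 and 4, the largest difference of the 19 arrays (-0.61). On log2(RPM + 0.5) the difference was -0.28. At an unadjusted p under 0.05, 17 of its windows were lower (26.2%, background 8.12%) and none was higher (background 6.82%), and none passed the adjusted test. Its WT mean was the highest of the 19, by less than the spread between libraries above the next (2.17 ± 0.15, chromosome 11), and the windows between its genes were lower too, at 2.32 in WT and 1.80 in cKO. Its input was 2.04 in WT and 1.90 in cKO. The window with the start of *Olfr95*, named here after its values were seen, had the highest WT mean of any Olfr window, 7.01, and stood at 4.90 in cKO (adjusted p = 0.152).

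The other end of the order was an array near the end of chromosome 7 (chr7:140160001-140710000, *Olfr522* to *Olfr541*, 23 windows). Its mean was 1.13, 0.996 and 1.00 in WT and 1.13, 1.25 and 1.48 in cKO, a difference of 0.25, with WT replicate 1 and cKO replicate 1 nearly equal. On log2(RPM + 0.5) the difference was 0.42 but the libraries overlapped. None of its windows reached a WT level of 3, and 1 of the 23 was higher at an unadjusted p under 0.05, where the background is 6.82%.

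The arrays also differed in level. The largest, on chromosome 2 (chr2:85330001-90285000, 287 windows), had a mean of 1.19 ± 0.14 in WT and 0.84 ± 0.34 in cKO, where replicate 1 (1.23) stood within the WT range and replicates 3 and 4 (0.602 and 0.681) below it. The class I receptors, the more ancient branch of the family, occupy a single array on chromosome 7 (chr7:102475001-105370000, 154 windows). It was higher, at 2.00 ± 0.12 in WT and 1.85 ± 0.19 in cKO, and held 32 windows with a WT level of at least 3, against 9 in the array on chromosome 2. Its windows held a median of 24.5 CpGs, against 18 in that array on chromosome 2. The array on chromosome 14 that holds *Olfr729* and *Olfr739* (49 windows) stood at 1.64 ± 0.14 and 1.21 ± 0.19, without overlap.

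**Figure D4:**
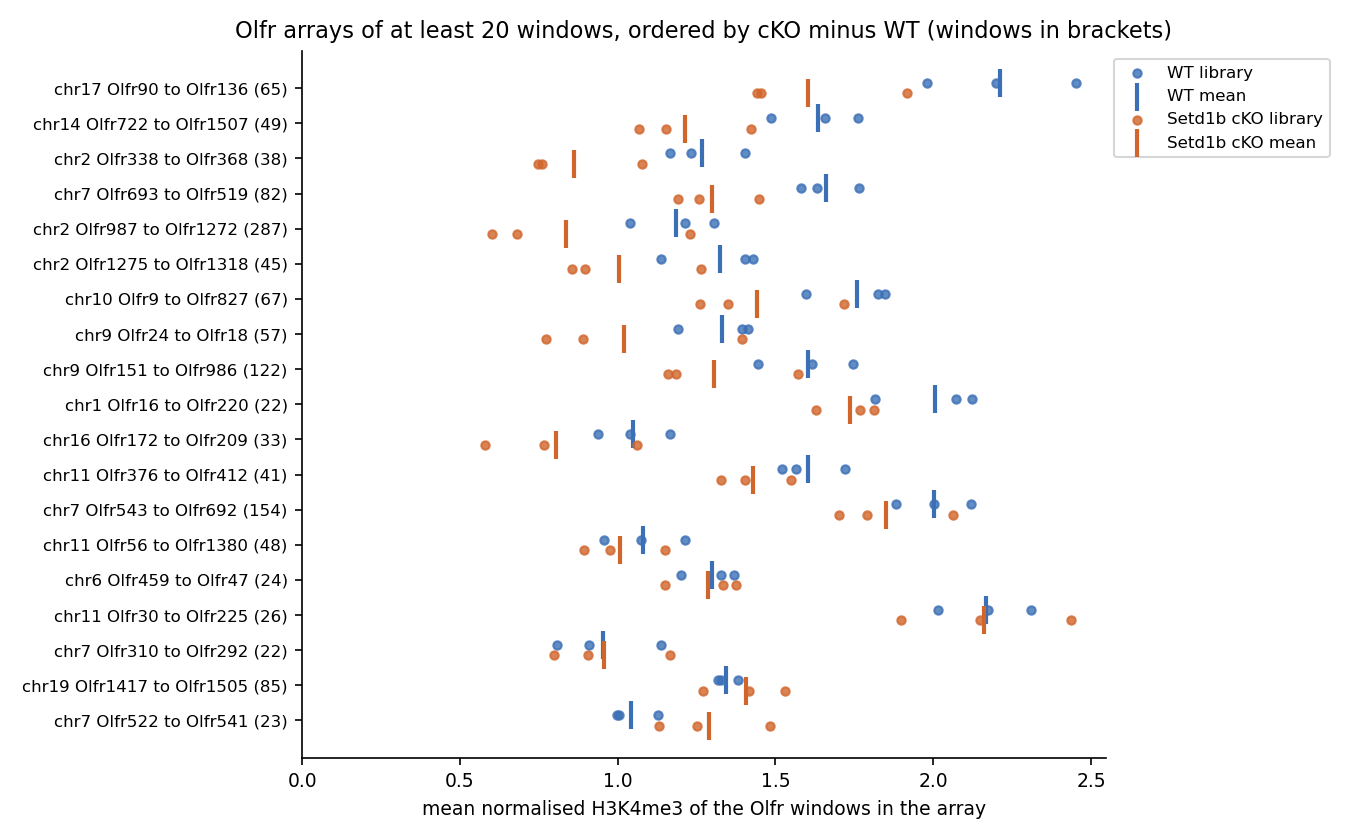
Mean normalised H3K4me3 of the Olfr windows in each of the 19 arrays of at least 20 windows, ordered by the difference between *Setd1b* cKO and WT. Points are libraries and vertical marks are means (n = 3), and the number of windows is in brackets. The array on chromosome 17 (difference -0.61) is at the top and an array on chromosome 7 (0.25) at the bottom.

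Receptor genes outside the large arrays carried more H3K4me3. The 29 runs of fewer than 20 windows (157 windows) had a mean of 2.48 ± 0.14 in WT and 2.21 ± 0.031 in cKO, without overlap, against 1.52 ± 0.10 and 1.28 ± 0.14 in runs of 20 to 99 windows and 1.50 ± 0.12 and 1.22 ± 0.27 in the 3 runs of at least 100. They also held more CpGs, a median of 32 per window against 20. The run on chromosome 15 that holds *Olfr287* (14 windows) had the highest WT mean of the 48 runs, at 4.05, 4.34 and 4.44 in WT and 3.39, 3.34 and 3.77 in cKO. Olfr windows within 25 kb of the start of another protein-coding gene had a WT mean of 2.29 (156 windows), and those more than 500 kb away 1.22 (96 windows). The median CpG count per window was 33 in the near windows and 17.5 in the far ones. Windows that hold a GENCODE start of a receptor gene stood at 1.57 ± 0.12 in WT (565 windows) and those without one at 1.64 ± 0.11 (882 windows).

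Most Olfr windows were poor in CpGs. All windows were ranked by CpG content and split into 10 bins of equal size, and 1301 Olfr windows fell in bins 1 to 6. There their mean was 1.51 ± 0.11 in WT and 1.25 ± 0.19 in cKO, against 1.81 ± 0.12 and 1.58 ± 0.18 in other windows, with differences of -0.26 and -0.23. With the other windows weighted by the number of Olfr windows in each bin, which falls from 476 in bin 1 to 60 in bin 6, a comparison chosen after seeing the data, they stood at 1.71 ± 0.12 and 1.42 ± 0.21, a difference of -0.28. In bins 7 to 10, with 146 Olfr windows, the WT mean was 2.54 ± 0.14 in Olfr windows and 2.47 ± 0.081 in other windows, or 2.40 ± 0.086 with the same weights, which gave other windows a cKO mean of 2.56 and a difference of 0.16.

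In these CpG-rich windows the genotypes differed in opposite directions. Olfr windows read 2.55, 2.40 and 2.68 in WT replicates 1, 2 and 4 and 2.36, 2.22 and 2.32 in cKO replicates 1, 3 and 4, a difference of -0.24. Other windows read 2.47, 2.39 and 2.55 in WT and 2.62, 2.67 and 2.65 in cKO, a difference of 0.18. Neither pair of groups overlapped, and the gap between the differences (-0.42) has no test. The libraries did not overlap, with cKO lower, in 25 of the 146 windows (17.1%, against 6.18% of other windows in these bins) and, with cKO higher, in 13 (8.90%, against 16.8%). On log2(RPM + 0.5) the differences were -0.03 and 0.15, so the gap had the same sign.

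The gap differed with the windows compared. CpG-rich windows without a gene name and away from promoters differed by -0.01. CpG-rich windows between the genes of the arrays differed by -0.37 (683 windows), and those of vomeronasal receptors by -0.46 (72 windows). Against these, most like the Olfr windows in position or kind, the gap had the opposite sign (0.13 and 0.22). The libraries of the genotypes overlapped in these 3 groups of windows. The 146 Olfr windows came from 34 runs, of which 24 were lower in cKO.

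**Figure D5:**
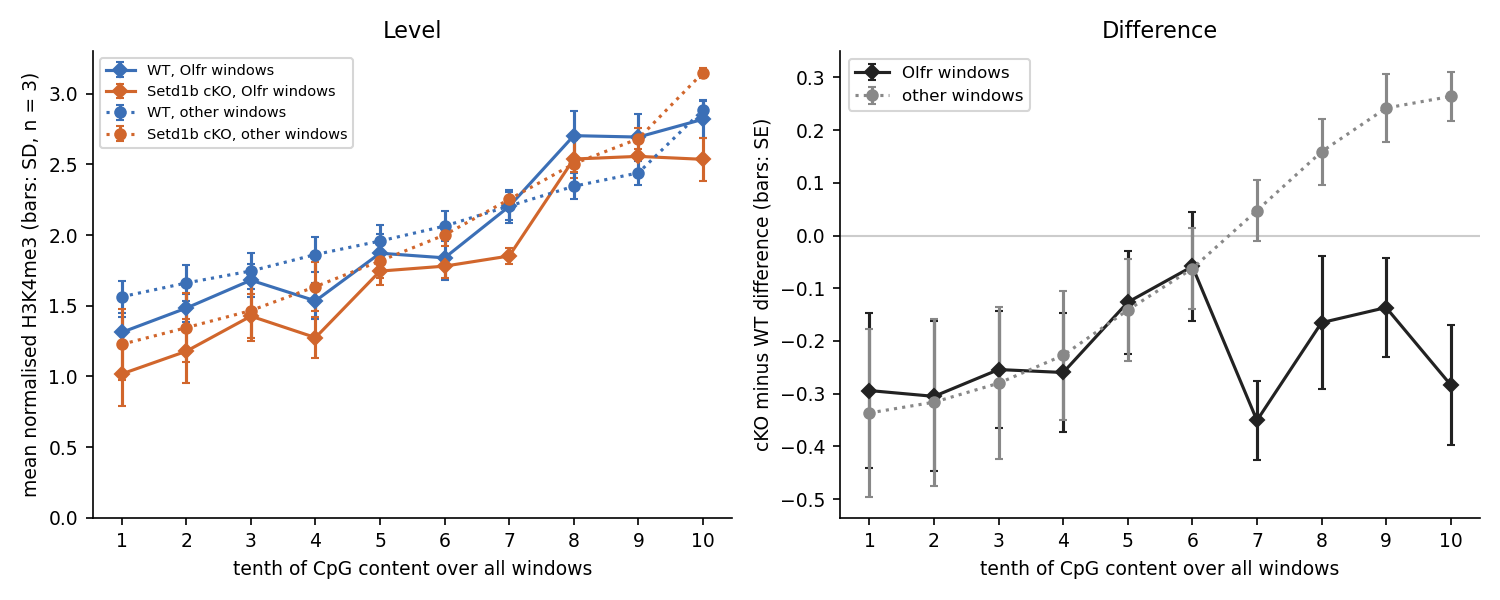
Mean normalised H3K4me3 (left, bars SD over n = 3 libraries) and the difference between *Setd1b* cKO and WT (right, bars SE) by CpG content in 10 bins of equal size (x axis), for bins with at least 20 windows, in Olfr windows and other windows. The differences are below 0 in both sets up to bin 6, and from bin 7 to 10 they are below 0 in Olfr windows and above 0 in other windows.

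Vomeronasal receptor genes, the other large chemoreceptor family in tandem arrays, had still lower normalised H3K4me3, and also lower input. Their 1044 windows stood at 1.31 ± 0.16 in WT and 0.887 ± 0.40 in cKO, a difference of -0.42. On log2(RPM + 0.5) the difference of these windows was -0.008, against 0.07 over all windows. Their reads were 0.493 to 0.603 times the mean of all windows in WT and 0.784 and 0.862 times in WT input, where Olfr windows held 1.02 and 1.10 times. Windows between the genes of Olfr arrays, with no gene name (3182), stood at 1.76 ± 0.14 and 1.44 ± 0.23, above the Olfr windows in 5 of the 6 libraries.

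Genes that act with the receptors had higher H3K4me3 at their starts than most Olfr windows. At the start windows of 21 genes of olfactory signalling and of receptor choice, the median was 4.30 in WT and 5.47 in cKO, and 2 gained H3K4me3, none lost it and 9 were higher at an unadjusted p under 0.05, against 0.563% and 6.82% of all windows. Of the 21 windows 20 lay in bins 7 to 10 of CpG content. Among all windows with a gene start in those bins, 1.37% gained H3K4me3, 15.8% were higher at an unadjusted p under 0.05, and the median was 3.42 in WT and 3.75 in cKO. The list was not tested against them. *Ebf2*, which encodes a transcription factor of olfactory neurons, read 4.00, 2.88 and 3.03 in WT and 6.11, 6.11 and 6.53 in cKO, a difference of 2.95 (SE 0.39, adjusted p = 0.0194). Its relative *Ebf3* read 3.95, 3.08 and 3.93 in WT and 6.55, 5.19 and 6.20 in cKO, a difference of 2.33 (SE 0.44, adjusted p = 0.0446). edgeR on the whole reads called neither of them (adjusted p = 0.559 and 0.667).

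Among the signalling genes, *Omp*, the olfactory marker protein, stood at 2.31 in WT and 4.43 in cKO without overlap (adjusted p = 0.0553). *Adcy3*, the adenylyl cyclase, stood at 5.82 and 7.20 without overlap (adjusted p = 0.119), and *Gnal*, the G protein subunit, at 5.30 and 5.94 with overlap. *Lhx2*, a factor required for receptor expression, stood at 4.79 and 4.41 (adjusted p = 0.661). The start windows of *Ebf2* and *Omp* held 209 and 101 CpGs, far above the median Olfr window.

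Marker genes of the cells that a pool could hold were measured at their starts. Among all windows with a gene start, 8.86% were lower and 10.8% higher at an unadjusted p under 0.05, against 8.12% and 6.82% of all windows. In the adjusted test 0.638% of the windows with a gene start were losses and 0.896% gains. At 10 oocyte genes the WT level was 4.69 to 7.79 and the median went from 6.62 in WT to 5.12 in cKO, with 6 lower and 1 higher at an unadjusted p under 0.05 and none past the adjusted test. At 6 granulosa cell genes the WT level was 0.87 to 4.82 and the median went from 3.79 to 5.02, with 2 higher and none lower at an unadjusted p under 0.05, of which *Foxl2* gained H3K4me3 (4.21 to 7.06, adjusted p = 0.0415) in a CpG-rich start window. At 3 blood cell genes the WT level was 1.37 to 2.69, and none moved at an unadjusted p under 0.05. Since genes of olfactory signalling and receptor choice reached 6.60 in WT, a high level at a start does not by itself mark oocytes. The part of other cells in the results on Olfr windows was not tested. The labels do not say whether the pools of a genotype came from separate animals, so the p-values measure the spread between pools.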

How the data were processed

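The members and gene lists were chosen with earlier results of these data known. The authors trimmed 75 bp reads (Trim Galore 0.4.2), mapped them with Bowtie2 2.2.9 to GRCm38, removed mappings with MAPQ under 20 and used SeqMonk for quantitation over 5 kb windows. For H3K4me3 the authors deposited enrichment-normalized RPKM, treated here as a score on a linear scale. For input the authors deposited a signal, the reads of each window scaled to library size. Whole reads were recovered for 100% of values (tolerance 0.02 read); PCR copies among them are not known. The test of each window was that of limma 3.58.1 (R 4.3.3) on the values as deposited (two-sided, no intensity trend, no block, Benjamini-Hochberg adjustment over 544879 windows), a fit tested on simulated data. A second fit used edgeR 4.0.16 on whole reads (TMM, quasi-likelihood test, at least 10 reads). Gene starts came from GENCODE M21, with 1 start per gene, and CpG counts from GRCm38. CpG content was the log2 ratio of CpGs per known base to the genome frequency. Chromosome ends matched the reference.

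Named windows are all called Olfr windows without overlap of the genotypes (up to 10 each way), the 5 highest means, the start windows of 10 well known receptors, and the arrays with the largest and smallest difference. *Hbb-b1* had no matched start. In GENCODE M21, 1399 receptor genes on these chromosomes overlap 2826 windows, 1386 of which the deposited table does not name for a receptor. Receptors are similar in sequence, so reads of near-identical copies may be missing after the mapping filter. Only 75 bp single-end reads were mapped, and 79 Olfr windows overlap 2 or more receptor genes. Alternatives are described with the closing section. Python 3.11.15, numpy 2.4.6, pandas 2.3.3 and matplotlib 3.10.9 were used.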

Additional observations from a re-analysis of the deposited data

How the results depend on the processing

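The number of called Olfr windows depended on the settings, and the causes were not tested. Against 2 gains and 3 losses, the intensity trend gave 7 and 43 (0.484% and 2.97%, background 1.57% and 2.01%). edgeR on whole reads gave 5 and 27 (0.347% and 1.88%, background 1.07% and 1.22%). The log2(value + 1) and log2(value + 0.1) fits, with values below 0 set to 0, gave 0 and 0, as did quantile normalization and adjusted p under 0.01. Over all windows too none was called there, apart from 1 gain under quantile normalization. At an unadjusted p under 0.05 the log2(value + 1) fit of limma gave 25 higher and 196 lower (5.85% and 7.59% of all windows), log2(value + 0.1) 28 and 129 (5.34% and 5.26%), and quantile normalization 63 and 193 (7.67% and 8.99%). A mean of at least 1 gave 3 and 8 (0.344% and 0.916%, background 0.979% and 0.851%). Autosomes only gave 3 and 5 (0.207% and 0.346%, background 0.698% and 0.501%). Taking the 1370 windows with a GENCODE start, chosen after seeing the data, gave 0 gains and 2 losses (0.563% and 0.454% of all windows). Leaving out 1 library gave 0 to 3 gains and 0 to 25 losses; 25 losses came without cKO replicate 1, where 1.59% of all windows were called as losses, and no loss without any other library, where 0 to 486 of all windows were. The deposited table gives every Olfr window as overlapping its gene, so that restricting to overlapping windows gives the same set.

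The replicate numbers 1 and 4 are shared by the genotypes. Libraries of the same number deviated from their group means with r of 0.319 (number 1) and 0.019 (number 4) across windows, and those of different numbers with r of -0.136 and -0.036. With 2 shared numbers, of which 1 gave a correlation, the libraries were not treated as pairs. With the number as a replicate block, 6 Olfr windows were called as gains and 56 as losses (0.415% and 3.87%, background 2.51% and 3.63%).

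The mean difference over Olfr windows was -0.26 and lay between -0.36 and -0.20 with 1 library left out. On log2(RPM + 0.5) it was reversed, at 0.042. The lower median of Olfr windows against all windows (-0.39) kept its sign in every alternative run, from -0.50 (mean in place of median) to -0.24 (log2(value + 1)), and from -0.42 to -0.33 with 1 library left out. The number of arrays lower in cKO was 13 to 16 under the other scales and a smaller largest gap, 15 to 17 with 1 library left out, and 5 on log2(RPM + 0.5), added after seeing the data. Median input of Olfr windows relative to all windows was 0.970 and the mean 1.04. The gap of CpG-rich Olfr windows to other CpG-rich windows (-0.42) was -0.46 to -0.17 under the other scales, against windows without a gene name and away from promoters and with 1 library left out, but was reversed against CpG-rich windows between the genes of the arrays (0.13) and of vomeronasal receptors (0.22), all chosen after seeing the data. Depth limits single windows: the median Olfr window held 7 to 36 reads per H3K4me3 library, and intervals from reads cover counting error only.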

Other observations

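Olfr windows just short of the adjusted threshold, in the limma fit over all windows, were those of *Olfr140* on chromosome 2 (difference -1.75, adjusted p = 0.0506), *Olfr771* on chromosome 10 (-1.91, adjusted p = 0.0507), *Olfr1431* on chromosome 19 (1.59, adjusted p = 0.0513), *Olfr209* on chromosome 16 (-1.89, adjusted p = 0.0549) and *Olfr394* on chromosome 11 (-1.68, adjusted p = 0.0556). The 1370 windows with a GENCODE start of a receptor gene stood at 1.60 ± 0.11 in WT and 1.32 ± 0.18 in cKO (SD, n = 3), a difference of -0.29. At an unadjusted p under 0.05, 7 of them (0.511%) were higher in cKO and 154 (11.2%) lower, against 6.82% and 8.12% of all windows.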
